A study of Rattus norvegicus with 30 samples.

Results

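Cultured rat hepatocytes exposed to 200 µM WY-14643 for 48 h were compared with hepatocytes that received vehicle for the same time. The comparison takes 10 of the 30 arrays of the series, 5 wells labelled 48 h and 200 µM and 5 wells labelled 48 h and 1% DMSO, and follows 11545 genes. The compound is 1 of 10 in a larger project that ran each as a study of its own. The cells were male Sprague Dawley hepatocytes bought frozen, plated on collagen under a layer of Matrigel and given compound or vehicle on day 3 of culture. The labels call the wells biological replicates without saying whether their cells came from different animals, so p-values measure the spread between wells, which may be technical. The vehicle carries 1% DMSO by its label, and the concentrated dosing stocks are also described as made in 1% DMSO, so the DMSO in the treated medium cannot be read from the labels. RNA was hybridised to Affymetrix rat arrays, and each gene's level is the signal of its probe set as deposited. Differences are given on the log2 scale after adding 16 to each signal, which understates the change of genes with low signals, and "rose", "fell" and "changed" are used only for genes with a Benjamini-Hochberg adjusted p below 0.05 in limma.

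WY-14643, also called pirinixic acid, is a synthetic ligand of PPARα, a nuclear receptor that binds DNA together with a retinoid X receptor. In liver the receptor is activated by fatty acids during fasting and raises transcription of genes for fatty acid uptake, activation and oxidation in mitochondria, peroxisomes and the endoplasmic reticulum. Agonists are also known to lower the transcripts of many plasma proteins, and in rats and mice they enlarge the peroxisome compartment. The probe set of Ppara itself lay under the signal filter, at 115.7 ± 70.5 (SD, n = 5) in vehicle and 117.9 ± 17.2 in treated wells.

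The array of vehicle replicate 4, number 22 in the labels, stood apart from the other 9 arrays. Its median signal was 766 against 385 to 434 on the others, the share of its probe sets that exceeded the filter used here was 73.9% (57.9% to 61% elsewhere), and across genes it correlated with the other vehicle arrays at a median r of 0.896 (0.977 to 0.980 for the other arrays and their groups). The numbers of genes that rose and fell are given with and without it, as are some lists and genes below. Other results against vehicle include it. The 3′ to 5′ signal ratio of the β-actin control was 3.10 ± 0.201 (SD, n = 5) in treated and 2.61 ± 0.313 in vehicle wells (exact permutation test, two-sided, p = 0.0317, adjusted p = 0.0952 over 3 ratios). That of GAPDH was 1.15 ± 0.00829 and 1.18 ± 0.0434 (exact p = 0.167), and that of hexokinase 0.132 ± 0.0261 and 0.215 ± 0.0697 (exact p = 0.0714). Without vehicle replicate 4 the exact p was 0.0556 for β-actin, 0.0159 for GAPDH and 0.111 for hexokinase. The defining hepatocyte transcripts were at high signals in both groups, with albumin (Alb) at 58696 to 69976 in treated and 56265 to 80750 in vehicle wells. Summed signals of the 12 hepatocyte markers were 490595 to 541260 in treated wells and 612105 to 692074 in vehicle wells other than replicate 4 (469056). Those of 4 bile duct markers were 10396 to 11037 in treated and 11127 to 14188 in vehicle wells. Summed signals of 11 measured macrophage markers ran from 9319 to 11264 in treated and from 14134 to 17000 in vehicle wells, and 4 of the 11 fell. For 9 stellate cell and fibroblast markers the sums were 4012 to 5050 in treated wells and 4984 to 6196 in vehicle wells other than replicate 4, where the sum was 9595. Of 12 hepatocyte markers 2 rose and 5 fell, of 6 endothelial markers 2 fell, of 4 bile duct markers 2 fell, and none of 3 lymphocyte markers changed. Without vehicle replicate 4 the hepatocyte counts were 2 and 7, and 6 macrophage, 1 endothelial and 3 bile duct markers fell. The macrophage markers Adgre1 and Ptprc, the stellate cell markers Lrat, Pdgfra, Pdgfrb and Lum, and the lymphocyte markers Cd3d, Cd2 and Cd79b lay under the signal filter. In RNA from whole wells, fewer cells of a type and less RNA per cell cannot be told apart.

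After 48 h at 200 µM, 1936 genes had risen (16.8% of those tested) and 1969 had fallen (17.1%). The median difference over all genes was -0.05. Without vehicle replicate 4 the counts were 1989 (17.2%) and 2171 (18.8%), and 3360 genes were called in the same direction by both fits, with no gene called in opposite directions. A change of at least 1.5-fold as well left 1396 genes (12.1%), 603 higher and 793 lower, and at a difference of at least 1 on the log2 scale there were 256 rises and 247 falls. Centring each array on its median, which moved the median difference of all genes to 0.12, left 1944 rises and 695 falls. Of these calls 73.7% were rises, against 49.6% without centring. Vehicle replicate 4 had the highest median signal of all arrays (766), so centring lowered its values the most. No centred fit without that array was made, and quantile normalization without it gave 2070 rises and 2146 falls. Among the genes that fell and are named below, Acox2, Cyp4f1, Acly, Mid1ip1, Slc2a2, Nr3c1, Ppargc1a, Dcn and Col3a1 did not pass after centring (adjusted p from 0.0535 to 0.413). Other probe sets of the same gene, 84 in all for 61 named genes that changed, passed in the same direction in 49 cases, in the opposite direction in none and did not pass in 35, among them probe sets of Acot7, Acaca, Ccnd1, Egfr, Ghr, Il1r1, Nr3c1 and Scd2.

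**Figure D1:**
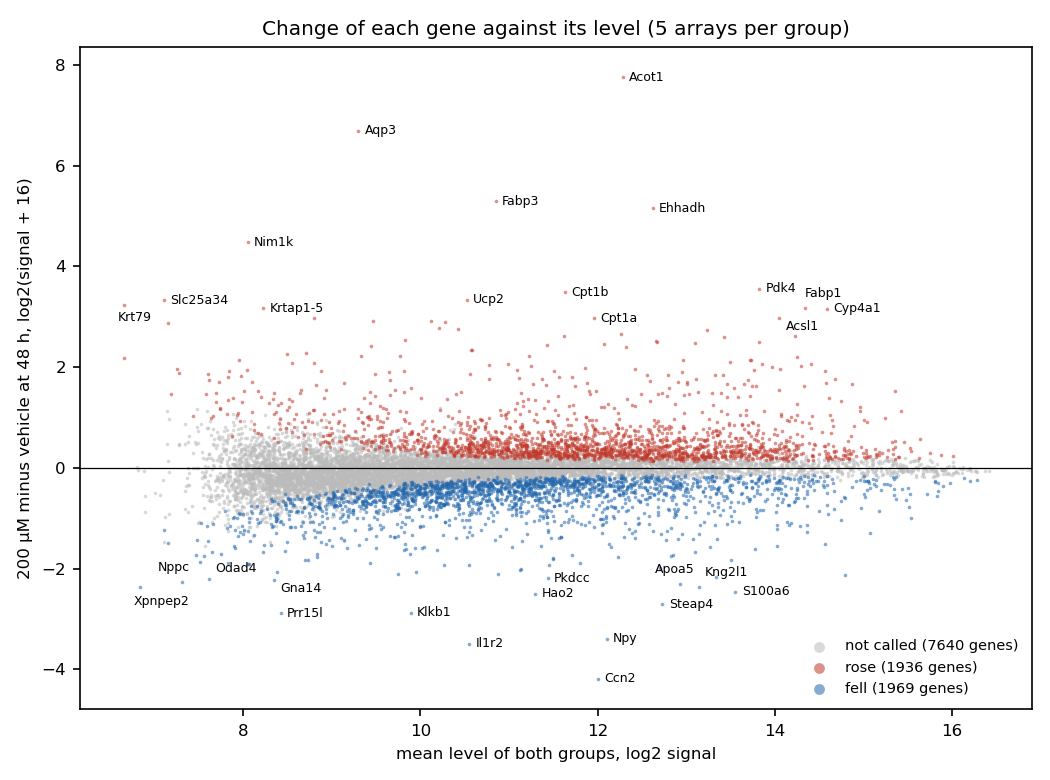
Difference between 200 µM and vehicle at 48 h on the log2(signal + 16) scale (y axis) against the mean log2 signal of the gene over both groups (x axis), 1 point a gene, red for the 1936 genes that rose and blue for the 1969 that fell. The 15 largest rises and 15 largest falls are named, from Acot1 at 7.76 to Ccn2 at -4.19.

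Genes for the handling of fatty acids rose furthest. The largest rise was that of Acot1, which encodes a cytosolic enzyme that splits acyl-CoA into free fatty acid and coenzyme A. Its signal was 1624, 302, 127, 54.2 and 171 in the vehicle wells and 53491, 56746, 54512, 54643 and 51385 in the treated wells. The lowest treated well stood far above the highest vehicle well, while the vehicle wells differed widely from each other. The difference was 7.76 ± 0.41 (SE), or 216-fold (adjusted p = 6.6e-17), and 7.30 without vehicle replicate 4, which had the lowest signal.

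Aqp3, a channel for water and glycerol, came next. Signals of 30.3, 28.1, 56.9, 144 and 24.4 under vehicle faced 6472, 5311, 6043, 5722 and 9639 under treatment. Here vehicle replicate 4 was the highest of its group, and the groups still did not overlap. The difference of 6.70 ± 0.23 (104-fold, adjusted p = 1.33e-21) became 7.04 without that array. Ehhadh, which encodes the peroxisomal bifunctional enzyme, read 1665, 1271, 1014, 454 and 1034 in vehicle wells and 36574, 33737, 34973, 33224 and 43414 in treated wells. All treated wells were above all vehicle wells, by 5.15 ± 0.17 (35.5-fold, adjusted p = 2.73e-22). Fabp3, a fatty acid binding protein best known from heart and muscle, rose from 264, 426, 487, 235 and 99.8 to 11141, 11630, 10628, 11830 and 10176, a difference of 5.29 ± 0.26 (39.2-fold, adjusted p = 1.61e-17).

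Pdk4, the kinase that switches off pyruvate dehydrogenase in fasting, gave 5905, 4400, 3914, 2962 and 4108 in vehicle and 49302, 50500, 48046, 52215 and 45807 in treated wells. The groups were well apart, by 3.56 ± 0.09 (11.8-fold, adjusted p = 1.09e-24). A second probe set of Pdk4 rose by 1.67 ± 0.11, so the size of the rise depends on the probe set. Cpt1a and Cpt1b, isoforms of the enzyme that commits long-chain fatty acids to mitochondrial oxidation, rose by 2.97 ± 0.10 (7.82-fold) and 3.48 ± 0.13 (11.2-fold). Cpt1a lay at 1451, 1435, 1350, 1349 and 1440 in vehicle and at 11160, 10478, 10765, 10441 and 12784 in treated wells, so the spread within each group was small beside the rise. Its second probe set rose by 0.68 ± 0.15.

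Fabp1, the abundant fatty acid binding protein of liver, was at 7547, 6872, 6883, 5295 and 8131 in vehicle and at 66800, 63065, 60704, 56339 and 63950 in treated wells, 9.01-fold higher (3.17 ± 0.09, adjusted p = 1.76e-24). Cyp4a1, the hydroxylase that starts ω-oxidation, was at 11123, 7984, 6422, 7471 and 8376 in vehicle and at 74863, 75317, 74372, 74926 and 66144 in treated wells, 8.96-fold higher (3.16 ± 0.09, adjusted p = 5.03e-24). Acsl1, which activates long-chain fatty acids to acyl-CoA, rose by 2.98 ± 0.10 (7.87-fold, adjusted p = 1.33e-21), and its second probe set by 4.31 ± 0.21. For these 3 genes no treated well came near the vehicle range.

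**Figure D2:**
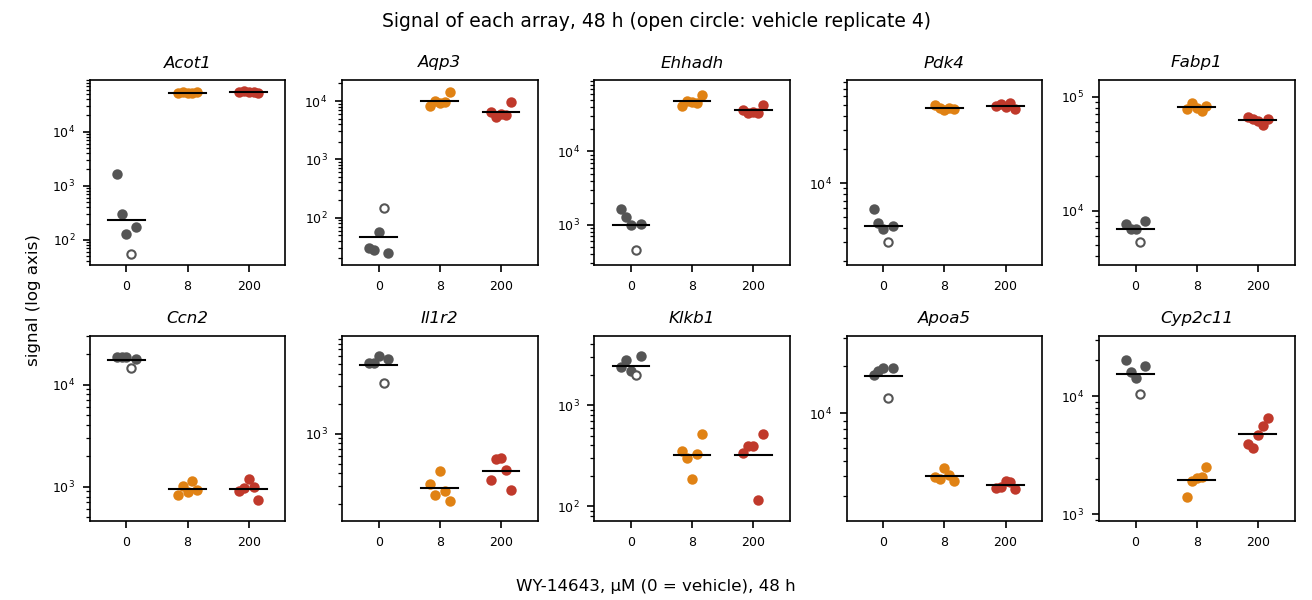
Signal of each array at 48 h (y axis, log scale) for 10 genes at 0 (vehicle), 8 and 200 µM WY-14643 (x axis), 1 point a well, with a bar at the mean on the log2(signal + 16) scale and an open circle for vehicle replicate 4. For Acot1, Aqp3, Ehhadh, Pdk4 and Fabp1 every treated well lies above every vehicle well, for Ccn2, Il1r2, Klkb1, Apoa5 and Cyp2c11 every treated well lies below, and the open circle is the lowest vehicle point in 9 of the 10 panels.

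The remaining genes among the 15 largest rises were more mixed in function. Ucp2, an uncoupling protein of the inner mitochondrial membrane, went from 599, 693, 564, 181 and 331 to 4641, 3975, 4742, 4083 and 5019, a difference of 3.34 ± 0.25 (adjusted p = 1.02e-12). Nim1k, a protein kinase related to AMPK, rose by 4.48 ± 0.30, Slc25a34, a mitochondrial carrier, by 3.33 ± 0.41, and the keratin gene Krt79 and keratin-associated gene Krtap1-5 by 3.23 ± 0.35 and 3.17 ± 0.32. Vehicle signals of these 4 genes were low, between 6.77 and 162, so their folds depend on the constant added before taking logs. With 1 added in place of 16, the rise of Krt79 was 4.26, and with 64 added it was 2.09.

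Across the carnitine shuttle and mitochondrial β-oxidation, 21 of 23 measured genes rose and 1 fell, with a median difference of 1.12 against -0.05 over all genes. Acadm, the medium-chain acyl-CoA dehydrogenase, was at 6831, 5952, 6411, 5589 and 7237 in vehicle and 28035, 26830, 28051, 28826 and 29909 in treated wells, a rise of 2.15 ± 0.07 with no overlap. Hadha, the α subunit of the trifunctional protein, rose by 1.67 ± 0.07, Acadvl, the very long-chain dehydrogenase, by 1.41 ± 0.05, and Crat, carnitine acetyltransferase, by 2.66 ± 0.11. Echs1, the short-chain enoyl-CoA hydratase, was the 1 member that fell, by 0.21 ± 0.08 (adjusted p = 0.0309), and after median centring its difference was -0.04 (adjusted p = 0.891). Acad9, better known as an assembly factor of complex I, was at 0.18 (adjusted p = 0.0564) and passed without vehicle replicate 4 (0.25).

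In peroxisomes the picture was similar, with 13 rises and 1 fall among 16 measured β-oxidation and α-oxidation genes (median 1.04). Besides Ehhadh, Hacl1, the lyase that shortens 2-hydroxy fatty acids, rose by 2.74 ± 0.07, Nudt7, a peroxisomal coenzyme A hydrolase, by 1.94 ± 0.06, and Crot, carnitine octanoyltransferase, by 1.93 ± 0.06. Acox2, the oxidase for branched chains and bile acid intermediates, fell by 0.44 ± 0.14. Among 16 genes of peroxisome biogenesis and membrane, 9 rose and 1 fell (median 0.52), led by Pex11a, a protein of peroxisome division, at 1.62 ± 0.06, Pex16 at 1.19 ± 0.09 and Pex19 at 0.81 ± 0.08. The second probe set of Pex16, at -0.18 (adjusted p = 0.501), did not pass.

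Of 9 acyl-CoA thioesterases 8 rose (median 1.91), and Acot9 at 0.09 did not pass. After Acot1 these were led by Acot4 (2.51 ± 0.11), Acot2 (2.50 ± 0.08) and Acot7 (1.91 ± 0.09). Of 10 measured ω-oxidation genes 4 rose and 1 fell (median 0.10). Cyp4a1 and Cyp4a3 (2.61 ± 0.09) rose far, whereas Cyp4f1 fell by 0.52 and Cyp4f4, Cyp4f5 and Cyp4f6, between -0.09 and 0.01, did not pass. Uptake and activation genes gave 14 rises and 3 falls among 20 (median 0.59). Cd36, a fatty acid translocase, was at 2993, 3148, 2596, 1818 and 3207 in vehicle and 13923, 13043, 15740, 16626 and 17839 in treated wells, a rise of 2.50 ± 0.13. The 3 falls were Fabp4, the adipocyte fatty acid binding protein (0.64 ± 0.14 lower), Fabp7 (0.42 ± 0.10 lower) and Slc27a5, a bile acid-CoA ligase (0.54 ± 0.12 lower), and after median centring none of them passed (adjusted p = 0.0861, 0.38 and 0.181).

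RefSeq promoter windows of the GRCr8 build, 250 bases before to 50 after the annotated start, were available for 9597 of the 11545 genes (the window listed first was used where a gene had several). They were searched on both strands for 2 copies of AGGTCA in the same direction spaced by 1 base, the textbook element of PPARα with its partner. No gene that rose held the exact repeat, and 4 of all 9597 genes (0.0417%) did. With up to 1 mismatch in the repeat bases, a search chosen after the exact one had been seen, 45 of 9597 genes (0.469%) had a match, 16 of 1644 that rose (0.973%), 5 of 217 that rose by at least 1 on the log2 scale (2.30%) and 4 of 1631 that fell (0.245%). The single copy AGGTCA occurred in 12.5% of all windows, 14.6% of those of genes that rose and 11.6% of those of genes that fell. For changes of at least 1 on the log2 scale the shares were 18.4% of rises and 17.7% of falls. Of the 9 thioesterases 3 held the near repeat, Acot4, Acot8 and Acot12. The 250 bases before the start are shown for 3 of the 5 listed fatty acid genes with a match, those whose rise is given above. These are Fabp1 at chr4:104749090-104749339 on the plus strand, Acot4 at chr6:109399604-109399853 on the plus strand and Acadvl at chr10:55236706-55236955 on the minus strand. Sequences run 5′ to 3′ on the strand of the gene, and capitals mark the near repeat, which in Fabp1 and Acot4 reads on the opposite strand.
Fabp1: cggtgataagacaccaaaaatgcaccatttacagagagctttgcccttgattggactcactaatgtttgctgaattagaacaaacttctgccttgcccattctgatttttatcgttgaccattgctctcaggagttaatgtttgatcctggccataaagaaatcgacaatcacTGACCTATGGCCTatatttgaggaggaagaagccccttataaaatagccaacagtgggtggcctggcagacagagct
Acot4: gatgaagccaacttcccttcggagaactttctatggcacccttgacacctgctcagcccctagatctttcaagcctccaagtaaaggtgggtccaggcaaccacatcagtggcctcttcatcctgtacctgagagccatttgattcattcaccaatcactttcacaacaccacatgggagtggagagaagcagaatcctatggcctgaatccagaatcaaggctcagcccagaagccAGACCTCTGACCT
Acadvl: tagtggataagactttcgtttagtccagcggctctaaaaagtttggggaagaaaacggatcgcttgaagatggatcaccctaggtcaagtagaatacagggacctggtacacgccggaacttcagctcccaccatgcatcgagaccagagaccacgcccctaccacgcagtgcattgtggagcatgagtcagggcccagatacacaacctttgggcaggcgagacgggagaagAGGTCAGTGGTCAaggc
The match ends 65 bases before the start of Fabp1, 1 base before that of Acot4 and 5 bases before that of Acadvl. A match is a run of letters and was not tested for binding.

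Lipid droplet and lipolysis genes gave 11 rises and 2 falls among 21 (median 0.58). Hilpda, a droplet protein that restrains lipolysis, was at 4285, 4034, 4587, 4223 and 5145 in vehicle and at 27758, 28462, 27240, 27937 and 24463 in treated wells, 2.61 ± 0.06 higher and with an adjusted p of 9.2e-26. The lipase Pnpla2 rose by 1.73 ± 0.08, its inhibitor G0s2 by 2.14 ± 0.11 and its activator Abhd5 by 1.26 ± 0.06. Lipe, the hormone-sensitive lipase, fell by 1.00 ± 0.19, and Lpin1, a phosphatidate phosphatase and coactivator, by 0.85 ± 0.08.

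Of 12 genes of ketogenesis and fasting signals 9 rose and 1 fell (median 1.69). Angptl4, a secreted inhibitor of lipoprotein lipase, was at 9607, 8937, 8656, 4516 and 9178 in vehicle and at 31937, 31565, 31495, 33252 and 29692 in treated wells. It was 3.99-fold higher (2.00 ± 0.13), with the groups clear of each other. Vnn1, a pantetheinase, rose by 2.10 ± 0.09, the acetyl-CoA acetyltransferase Acat1 by 2.06 ± 0.06 and the hormone gene Fgf21 by 1.06 ± 0.11. The coactivator Ppargc1a fell by 0.56 ± 0.19 (adjusted p = 0.02), which did not hold without vehicle replicate 4 (-0.46, adjusted p = 0.061).

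Genes of glycerol and glucose metabolism gave 13 rises and 4 falls among 23 (median 0.61, and 13 and 6 without vehicle replicate 4). Besides Aqp3 and Pdk4, the glycerol channel Aqp7 rose by 1.95 ± 0.07 and the glycerol kinase Gk by 2.47 ± 0.08 (1.29 ± 0.25 in its second probe set). The mitochondrial glycerol-3-phosphate dehydrogenase Gpd2 rose by 2.75 ± 0.12, while Aqp9, the main glycerol channel of hepatocytes, fell by 0.69 ± 0.10. Pck1, the gluconeogenic phosphoenolpyruvate carboxykinase, was at 780.2, 1031, 809.6, 2010 and 993 in vehicle and at 3359, 4653, 4361, 3600 and 4858 in treated wells, 1.95 ± 0.19 higher. Here vehicle replicate 4 was the highest vehicle well, still below the treated wells. Pklr, the liver pyruvate kinase, fell by 1.35 ± 0.08 and the glucose transporter Slc2a2 by 0.59 ± 0.07. The second probe set of Pklr was at -4.03 ± 0.48, with a low treated mean of 39.4.

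Fatty acid and triglyceride synthesis was split, with 13 rises and 4 falls among 20 (median 0.41). The desaturases Fads1 (1.98 ± 0.13) and Fads2 (1.87 ± 0.22), malic enzyme Me1 (1.58 ± 0.11) and the acyltransferases Dgat1 (1.24 ± 0.07) and Dgat2 (0.86 ± 0.05) rose. The falls were Acaca, the acetyl-CoA carboxylase that makes malonyl-CoA (0.76 ± 0.10 lower), Acly (0.52 ± 0.09 lower), the carbohydrate-responsive factor Mlxipl (0.49 ± 0.09 lower) and Mid1ip1 (0.51 ± 0.11 lower). Fasn, fatty acid synthase, was at -0.05 and did not pass. Among 21 cholesterol synthesis genes 5 rose and 3 fell (median 0.06), and without vehicle replicate 4 it was 3 and 7.

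**Figure D3:**
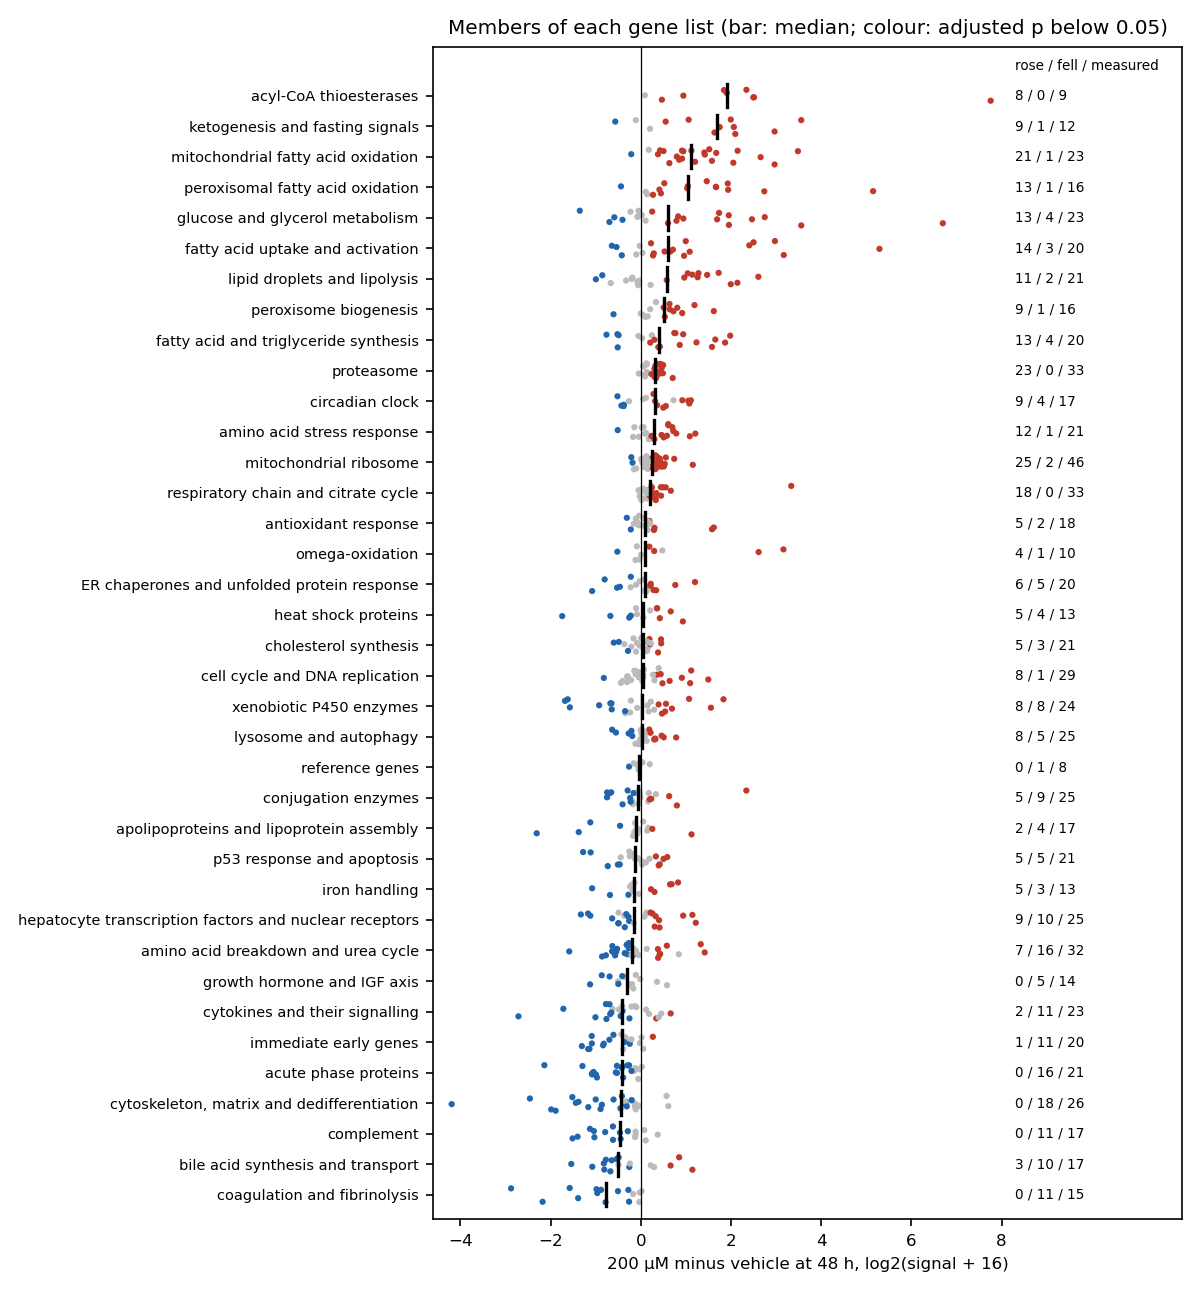
Difference between 200 µM and vehicle at 48 h on the log2(signal + 16) scale (x axis) for the members of 37 gene lists (y axis, ordered by median), 1 point a gene, red and blue for genes that rose and fell, grey for the rest, with a bar at the median and counts at the right. The medians run from 1.91 for the thioesterases, followed by ketogenesis at 1.69, to -0.49 for bile acid synthesis and transport and -0.78 for coagulation.

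The largest fall was that of Ccn2, which encodes connective tissue growth factor, a secreted matrix protein. Signals were 18484, 18810, 18711, 14532 and 17637 in vehicle and 896, 964, 1183, 1001 and 738 in treated wells. The groups lay far apart, and the difference was -4.19 ± 0.10 (18.3-fold lower, adjusted p = 9.2e-26). Il1r2, the decoy receptor for interleukin-1, was at 5117, 5139, 6009, 3260 and 5597 in vehicle and at 347, 557, 578, 436 and 276 in treated wells, 11.2-fold lower (-3.49 ± 0.17). Npy, the precursor of neuropeptide Y, was at 13180, 13685, 15849, 13304 and 15152 in vehicle and at 1125, 1434, 1526, 1463 and 1189 in treated wells, 10.5-fold lower (-3.39 ± 0.08). In both genes every treated well was below every vehicle well.

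Further genes among the 15 largest falls encode secreted or membrane proteins. Klkb1, plasma prekallikrein, was at 2379, 2812, 2178, 1962 and 3017 in vehicle and at 333, 397, 398, 115 and 520.1 in treated wells (-2.88 ± 0.24). Kng2l1, a kininogen gene, fell by 2.37 ± 0.10 and by 2.51 and 1.22 in its other probe sets, so all 3 fell. Apoa5, the apolipoprotein that promotes hydrolysis of triglycerides, was at 17528, 18613, 19422, 12434 and 19476 in vehicle and at 3350, 3385, 3700, 3663 and 3312 in treated wells (-2.31 ± 0.08). Steap4, a metalloreductase, fell by 2.71 ± 0.12. Falls of like size were those of Hao2, a peroxisomal hydroxyacid oxidase (-2.50 ± 0.15), S100a6, a calcium-binding protein (-2.46 ± 0.11), and Pkdcc, a secreted kinase (-2.19 ± 0.11). Prr15l, Xpnpep2, Nppc, Gna14 and Odad4, whose differences lay between -2.88 and -2.20, ended at treated signals of 18.1 to 236, where the added constant shapes the fold.

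Plasma proteins made in liver fell as groups. No acute phase gene rose and 16 of 21 fell (median -0.42), with 18 falls without vehicle replicate 4 and 7 after median centring. A2m, α2-macroglobulin, was at 60608, 62866, 62993, 46053 and 66160 in vehicle and at 14544, 15516, 14581, 12392 and 10844 in treated wells, 4.40-fold lower (-2.14 ± 0.11). Serpina3n fell by 1.29 ± 0.07, Itih4 by 1.08 ± 0.08 and Ahsg, fetuin-A, by 0.99 ± 0.08. Orm1 at 0.02, Hp at -0.06 and Ttr at -0.03 did not pass.

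Among 17 complement genes 11 fell (13 without vehicle replicate 4, 8 after median centring) and none rose (median -0.46). C3, the central component, was at 36004, 34651, 34570, 21462 and 30499 in vehicle and at 14754, 13223, 14615, 13663 and 14608 in treated wells, 1.13 ± 0.10 lower without overlap. C6 fell by 1.51 ± 0.17, C1s by 1.40 ± 0.09 and C1r by 1.03 ± 0.11. Of 15 coagulation and fibrinolysis genes 11 fell (13 without vehicle replicate 4, 8 after median centring) and none rose (median -0.78). After Klkb1 came Hrg, histidine-rich glycoprotein (2.18 ± 0.11 lower), the thrombin inhibitor gene Serpind1 (1.57 ± 0.15 lower), the cofactor F5 (1.39 ± 0.10 lower) and plasminogen, Plg (0.98 ± 0.08 lower). F2, prothrombin, at -0.03 and F10 at -0.03 did not pass, and F10 did without vehicle replicate 4 (-0.14, adjusted p = 0.0154).

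The 17 apolipoprotein and lipoprotein genes gave 2 rises and 4 falls, and 2 rises and 10 falls without vehicle replicate 4. Mttp, which loads lipid onto apolipoprotein B, rose by 1.13 ± 0.08. Apoa5, Lcat, the plasma cholesterol acyltransferase (1.37 ± 0.09 lower), and Apoc4 (1.12 ± 0.09 lower) fell in both fits. Apoa1 at -0.14, Apob at 0.14 and Apoc3 at -0.09 did not pass, although Apoa1 (-0.24, adjusted p = 0.0027) and Apoc3 (-0.16, adjusted p = 0.0389) did without that array.

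Bile acid synthesis and transport gave 3 rises and 10 falls among 17 (median -0.49). The counts were 3 and 11 without vehicle replicate 4, and 4 and 6 after median centring. Cyp7a1, whose enzyme sets the rate of bile acid formation, was at 1103, 869, 755, 1454 and 1136 in vehicle and at 196, 398, 418, 355 and 424 in treated wells, 2.91-fold lower (-1.54 ± 0.22) with no overlap. Cyp27a1 of the alternative pathway fell by 0.81 ± 0.07 and the phospholipid exporter Abcb4 by 0.82 ± 0.08. The rises were Cyp8b1, the sterol 12α-hydroxylase (0.85 ± 0.12), the bile salt export pump Abcb11 (0.66 ± 0.06) and the bile acid receptor Nr1h4 (1.15 ± 0.08).

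Drug-metabolising P450 genes moved in both directions, with 8 rises and 8 falls among 24 (10 and 9 without vehicle replicate 4). Cyp2c11, a male-specific steroid hydroxylase of rat liver, was at 20228, 15940, 14201, 10320 and 17802 in vehicle and at 3950, 3613, 4714, 5607 and 6541 in treated wells, 3.20-fold lower (-1.68 ± 0.15). Cyp2e1, which oxidises ethanol and ketone bodies, was at 5754, 6624, 5307, 4151 and 7211 in vehicle and at 19070, 18173, 19802, 20422 and 25164 in treated wells, 3.57-fold higher (1.83 ± 0.12). Neither gene's groups overlapped. Cyp1a2 fell by 1.57 ± 0.08 and the soluble epoxide hydrolase Ephx2 rose by 1.56 ± 0.07. Of 25 conjugation enzymes 5 rose and 9 fell (3 and 10 without that array), with Sult1c3, a sulfotransferase, highest at 2.34 ± 0.17. Among 18 antioxidant genes 5 rose and 2 fell, and without vehicle replicate 4 the counts were 4 and 5. Nqo1 at -0.05 and Txnrd1 at -0.15 did not pass.

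Liver transcription factors and nuclear receptors gave 9 rises and 10 falls among 25. Rxrg, a retinoid X receptor, rose by 1.22 ± 0.07 on 1 probe set, while its second was at -0.46 (adjusted p = 0.16). Foxa3 fell by 1.12 ± 0.11 and the glucocorticoid receptor Nr3c1 by 0.50 ± 0.05, while Hnf4a at 0.12 and Cebpa at 0.08 did not pass. Amino acid breakdown and the urea cycle gave 7 rises and 16 falls among 32 (median -0.19). The counts were 7 and 20 without vehicle replicate 4, and 7 and 4 after median centring, which left more rises than falls. Hal, histidase, fell by 1.59 ± 0.16 and Tdo2, which opens tryptophan breakdown, by 0.77 ± 0.08, whereas Agxt, the alanine-glyoxylate aminotransferase, rose by 1.33 ± 0.09 and Kynu by 0.58 ± 0.07.

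Genes of the cytoskeleton, matrix and hepatocyte dedifferentiation in culture gave 18 falls and no rise among 26 (median -0.43). There were 21 falls and no rise without vehicle replicate 4, and 10 falls and 1 rise after median centring. Vim, vimentin, was at 14542, 14238, 14173, 8908 and 14656 in vehicle and at 3520, 3336, 3309, 4004 and 2475 in treated wells, 3.96-fold lower (-1.99 ± 0.14). Fn1, fibronectin, fell by 1.52 ± 0.07 and Krt19, a keratin of bile duct cells, by 1.89 ± 0.50. Of 9 stellate cell and fibroblast markers, measured beside them, 4 fell (Dcn, Col1a1, Col3a1 and Acta2), and without vehicle replicate 4 it was 1 rise and 1 fall. The part of other cell types in these falls was not tested. Of 20 immediate early genes 11 fell and 1 rose (median -0.41), among them Ier3 (1.31 ± 0.08 lower), Klf6 (1.09 ± 0.06 lower) and Egr1 (1.08 ± 0.12 lower).

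Cytokine signalling gave 11 falls and 2 rises among 23 (median -0.41, and 13 falls and 3 rises without vehicle replicate 4). The interleukin-1 receptor Il1r1 fell by 1.00 ± 0.10, the shared receptor chain Il6st by 0.69 ± 0.08 and the chemokine Cxcl16 by 0.77 ± 0.09. Other probe sets of Il6st fell further, with differences from -1.29 to -1.05. Tnf fell by 1.72 ± 0.57 (adjusted p = 0.0185), which did not hold without vehicle replicate 4 (-1.44, adjusted p = 0.0555). The rises were Cxcl12 (0.66 ± 0.14) and Nfkbiz (0.34 ± 0.10). Of 11 macrophage markers 4 fell, Lyz2 (0.81 ± 0.10 lower), C1qb (1.44 ± 0.35 lower), Cd5l (0.90 ± 0.19 lower) and C1qa (0.59 ± 0.13 lower), and their part in the cytokine result was not tested. C1qb stood at 93.3, 361, 547, 118 and 387 in vehicle and at 76.4, 40.1, 68.1, 155 and 98.4 in treated wells, so the groups overlapped. Of 14 growth hormone and IGF genes 5 fell and none rose, with Egfr lowest at -1.12 ± 0.07 and Ghr at -0.86 ± 0.12.

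Gene groups of protein turnover and mitochondria shifted by small amounts. Proteasome subunits against vehicle gave 23 rises and no fall among 33 (median 0.32, and 21 rises after median centring), the furthest being Psmd11, a regulatory particle subunit, at 0.71 ± 0.06, though its second probe set, at 0.08 (adjusted p = 0.33), did not pass. Mitochondrial ribosomal proteins gave 25 rises and 2 falls among 46 (median 0.25), with Mrps18a at 1.15 ± 0.07. Respiratory chain and citrate cycle genes gave 18 rises and no fall among 33 (median 0.20), with 14 rises and 1 fall without vehicle replicate 4 and 11 rises after median centring. Apart from Ucp2 the largest of these was Suclg1, a succinyl-CoA ligase subunit, at 0.67 ± 0.07, and Tfam, which packages mitochondrial DNA, rose by 0.55 ± 0.05. Of 29 cell cycle genes 8 rose and 1 fell. Gmnn, the replication licensing inhibitor geminin, rose 2.83-fold and the cyclin Ccnd1 by 1.12 ± 0.24 on the log2 scale, while Myc fell by 0.82 ± 0.11 and 7 listed genes, Mki67 and Cdk1 among them, were below the signal filter.

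Stress genes were also divided. The amino acid stress response gave 12 rises and 1 fall among 21 (median 0.30). Ddit3, which encodes the factor CHOP, was at 2802, 2550, 3061, 2423 and 2805 in vehicle and at 7314, 7648, 5268, 7512 and 4522 in treated wells, 2.31-fold higher (1.21 ± 0.14). Atf4 at 0.18 and Atf3 at -0.04 did not pass. ER chaperones and the unfolded protein response gave 6 rises and 5 falls among 20. Sdf2l1, a chaperone cofactor, was at 2915, 3067, 2714, 2711 and 2605 in vehicle and at 5829, 5279, 5663, 7010 and 9207 in treated wells, 2.30-fold higher (1.20 ± 0.10). Xbp1, a transcription factor of this response, was at 18061, 18399, 18069, 15508 and 19916 in vehicle and at 8894, 8515, 8648, 7965 and 8443 in treated wells, 2.11-fold lower (-1.08 ± 0.05). Hspa5, the chaperone BiP, at 0.14 did not pass. Of 17 clock genes 9 rose and 4 fell, including Per3, Dbp, Hlf and Nr1d1 among the rises and Per2 among the falls, whereas Bmal1 at -0.26 did not pass. Per3, at 1.11, did not pass without vehicle replicate 4 (0.83, adjusted p = 0.0933), and the counts were then 6 and 4. After median centring no clock gene fell, Per2 being at -0.35 (adjusted p = 0.0666). The ER list had 4 rises and 2 falls after median centring, and 7 and 6 without vehicle replicate 4. Heat shock proteins gave 5 rises and 4 falls among 13, and genes of p53 and apoptosis 5 and 5 among 21. Lysosome and autophagy genes gave 8 and 5 among 25 (6 and 6 without vehicle replicate 4, 5 and 0 after median centring). Iron handling gave 5 and 3 among 13. Of 8 reference genes 1 fell.

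The wells given 8 µM for 48 h show where the higher dose differed from the lower. Directly compared, 261 genes were higher at 200 µM (2.26% of those tested) and 292 lower (2.53%), and 192 of these 553 were not among the genes changed against vehicle. Vehicle replicate 4 is in neither of these groups but enters the spread of the shared fit, and without it 501 were higher (4.34%) and 536 lower (4.64%). Median centring left 38 higher and 58 lower, and the list counts between doses below were not made after it. Many of the leading genes did not pass between the doses. Acot1, at 52168, 54172, 51342, 52101 and 54959 at 8 µM, differed by 0.03 ± 0.41 (adjusted p = 0.991), Pdk4 by 0.06 ± 0.09 (adjusted p = 0.866) and Ccn2, at 833, 1007, 887, 1148 and 923, by -0.01 ± 0.10 (adjusted p = 0.984). For Acot1 the wells of the doses overlapped closely, and its SE comes from the shared fit, which includes the widely spread vehicle wells. A p that misses the threshold does not show that the doses act alike.

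Some fatty acid genes were lower at 200 than at 8 µM. Of 23 mitochondrial oxidation genes 5 were lower and none higher (11 and none without vehicle replicate 4), among them Acads at -0.44 ± 0.06, and of 16 peroxisomal genes 3 were lower (6 without that array). None of 10 ω-oxidation genes differed, and without that array 3 were higher and none lower. Fabp1 was at 78706, 87585, 80022, 74845 and 83609 at 8 µM, above all 200 µM wells, a difference of -0.38 ± 0.09 (adjusted p = 0.00575). Of 20 fatty acid and triglyceride synthesis genes 7 were lower, among them Fads1 (-0.53 ± 0.13).

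Cholesterol synthesis genes differed most widely by count, with 13 of 21 lower at 200 than at 8 µM and none higher (median -0.31). The 13 run along the pathway from Idi1, Fdps and Fdft1 to Lss, Cyp51 and Dhcr7. Lss, lanosterol synthase, was at 2827, 2801, 3043, 2311 and 2396 in vehicle, 4094, 4108, 3863, 4228 and 4100 at 8 µM and 2843, 2593, 2448, 2719 and 2508 at 200 µM. The 8 µM wells thus stood above both other groups, and the difference between doses was -0.64 ± 0.09 (adjusted p = 1.73e-05). Hsd17b7 of the same pathway was at 8969, 10095, 8350, 10443 and 10363 at 8 µM and 6231, 6088, 5661, 6317 and 6380 at 200 µM (-0.65 ± 0.09).

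ER chaperones went the other way, with 9 of 20 higher at 200 than at 8 µM and none lower (10 and 1 without vehicle replicate 4). Sdf2l1 was at 1886, 2096, 1896, 2260 and 1984 at 8 µM, below the vehicle wells, and the dose difference was 1.67 ± 0.10 (adjusted p = 5.24e-13). Creld2 was at 1853, 1962, 1821, 1599 and 1522 at 8 µM and at 3306, 3013, 2612, 3956 and 3987 at 200 µM (0.93 ± 0.11), against 4133, 3813, 3888, 3443 and 4261 in vehicle. Every 200 µM well was above every 8 µM well, and the 200 µM and vehicle wells overlapped. Hsp90b1, the ER form of Hsp90 (0.75 ± 0.08), the lectin chaperones Calr (0.74 ± 0.07) and Canx (0.18 ± 0.05), Pdia3 (0.65 ± 0.06), Dnajc3 (0.64 ± 0.06), Dnajb11 and Pdia6 completed the 9. Dnajc3 was also above vehicle (0.77 ± 0.06), whereas Hsp90b1 at -0.10 and Creld2 at -0.23 against vehicle did not pass. Without vehicle replicate 4 Hsp90b1 was lower than vehicle (-0.22, adjusted p = 0.00202).

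**Figure D4:**
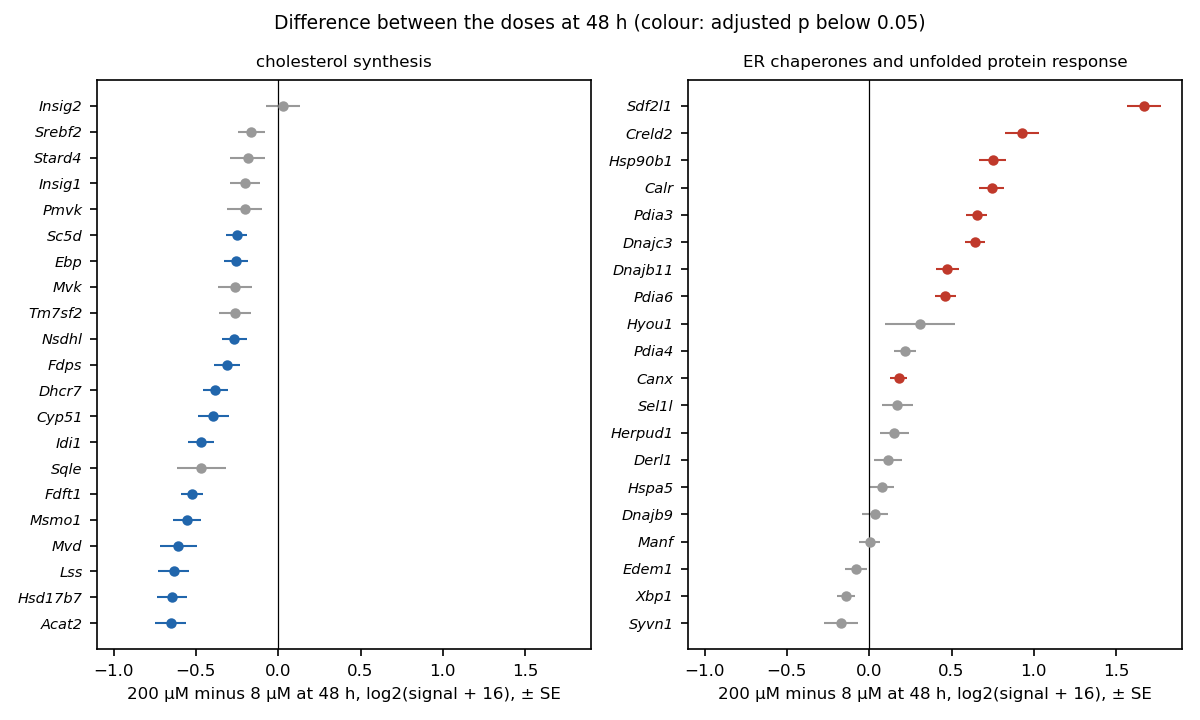
Difference between 200 µM and 8 µM at 48 h on the log2(signal + 16) scale with its SE (x axis) for 21 cholesterol synthesis genes (left) and 20 ER chaperone and unfolded protein response genes (right), 5 wells a dose, coloured where the adjusted p is below 0.05. The coloured cholesterol genes lie between -0.65 and -0.25, and the coloured ER genes between 0.18 and 1.67.

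Promoter windows of the ER list were searched for CCAAT and CCACG spaced by 9 bases, the textbook ER stress element, on both strands. This search was chosen after the dose difference had been seen. Of 16 list members with a window 7 held a match (43.8%), against 15 of all 9597 genes (0.156%), and of the 7 with a window that were higher at 200 than at 8 µM 5 held one, Hsp90b1, Calr, Canx, Dnajc3 and Creld2. Hspa5, which did not differ between the doses (0.08), and Xbp1, at -0.14, held it too. Among all 221 genes with a window that were higher at 200 than at 8 µM, 6 held it (2.71%), the same 5 and Ero1b. The 250 bases before the start are shown for 3 of the 5, Hsp90b1 at chr7:23012294-23012543 on the minus strand, Creld2 at chr7:121789134-121789383 on the plus strand and Dnajc3 at chr15:102432417-102432666 on the plus strand of GRCr8 (RefSeq). Capitals mark the element, which reads on the opposite strand in Creld2 and on each strand once in Hsp90b1.
Hsp90b1: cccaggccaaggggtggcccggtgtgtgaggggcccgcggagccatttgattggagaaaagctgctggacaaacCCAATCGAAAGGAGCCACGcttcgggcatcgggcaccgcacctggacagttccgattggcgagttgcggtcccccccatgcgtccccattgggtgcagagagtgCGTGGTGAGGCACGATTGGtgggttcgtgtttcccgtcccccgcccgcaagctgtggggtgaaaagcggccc
Creld2: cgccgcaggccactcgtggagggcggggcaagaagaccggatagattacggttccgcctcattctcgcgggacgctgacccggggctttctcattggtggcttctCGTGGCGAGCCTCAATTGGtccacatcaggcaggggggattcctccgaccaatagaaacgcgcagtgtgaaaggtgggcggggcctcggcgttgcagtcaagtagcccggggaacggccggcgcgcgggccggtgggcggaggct
Dnajc3: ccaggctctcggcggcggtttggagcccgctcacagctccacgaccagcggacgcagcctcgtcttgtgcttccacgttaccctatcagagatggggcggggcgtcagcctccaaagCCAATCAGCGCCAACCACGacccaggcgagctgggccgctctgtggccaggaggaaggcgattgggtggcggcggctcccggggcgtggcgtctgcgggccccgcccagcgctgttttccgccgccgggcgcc
The element is a match of letters, and its use in these cells was not tested.

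Other genes with the largest dose differences were Plek, a phosphoprotein of blood cells, at -2.37 ± 0.54, Entpd1, an ectonucleotidase, at -2.05 ± 0.36, Gpr182 at -1.73 ± 0.48, the complement factor Cfd at -1.71 ± 0.23 and Veph1 at -1.65 ± 0.35. Entpd1 was at 13.3, 25.2, 23.7, 84.7 and 25.5 in vehicle, 651, 893, 774, 771 and 1222 at 8 µM and 327, 239, 113, 119 and 239 at 200 µM, so the 200 µM wells lay between the other groups. Cfd was at 1682, 1636, 1386, 1154 and 1590 at 8 µM and at 502, 472, 286, 485 and 505 at 200 µM, with vehicle at 282 to 425. Of 11 macrophage markers 3 were lower at 200 than at 8 µM, C1qb (-1.46 ± 0.35), Cd68 (-0.60 ± 0.15) and C1qa (-0.56 ± 0.13), and their part in these differences was not tested. Higher at 200 µM were Phf1 (2.63 ± 0.53), Trim66 (2.08 ± 0.52), the dicarboxylate carrier Slc13a2 (2.00 ± 0.49), Abca8a (1.73 ± 0.39) and the glucuronosyltransferase Ugt2b1 (1.69 ± 0.12). Ugt2b1 was at 5380, 5571, 5220, 6327 and 6560 at 8 µM and at 17020, 16752, 18257, 20066 and 22089 at 200 µM, against 19985 to 39675 in vehicle. Cyp2c11 (1.28 ± 0.15) and Cyp2e1 (1.29 ± 0.12) were also higher at 200 than at 8 µM, although Cyp2c11 fell and Cyp2e1 rose against vehicle.

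The effect of 200 µM at 48 h was set against its effect at 24 h, each against the vehicle of its own time. It was higher at 48 h for 150 genes (1.30% of those tested) and lower for 128 (1.11%), and without vehicle replicate 4 for 220 (1.91%) and 268 (2.32%). After median centring there were 20 and 8, and the list counts between times below were not made after it. Of the 3905 genes changed at 48 h, 242 also passed for the difference from 24 h. It had the sign of the 48 h change for 225 and the opposite sign for 17. That difference contains the 48 h change by which the 3905 were picked, which by itself favours the same sign. The 225 include genes whose 24 h difference had the other sign, such as Dbp below. Fabp1 rose by 1.76 ± 0.09 at 24 h and 3.17 ± 0.09 at 48 h, a difference of 1.41 ± 0.12 (adjusted p = 2.27e-09). The desaturases Fads2 and Scd2 and the kinetochore gene Spc24 rose further by 1.27 ± 0.32, 1.25 ± 0.18 and 1.23 ± 0.16. Dbp, a clock output factor, was at -0.45 ± 0.29 at 24 h and 1.08 ± 0.29 at 48 h, a difference of 1.53 ± 0.41 (adjusted p = 0.0344). Cyp4a1 went against this, at 3.86 ± 0.09 at 24 h and 3.16 ± 0.09 at 48 h (adjusted p = 0.00105). For Acot1 the time difference was -0.93 ± 0.57 (adjusted p = 0.507) and for Ehhadh 0.39 ± 0.24 (adjusted p = 0.506), neither past the threshold.

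Falls that deepened were found among plasma protein genes. Of 21 acute phase genes 6 were lower at 48 h and none higher (11 and none without vehicle replicate 4), of 17 complement genes 4, and of 15 coagulation genes 2 (5 without that array). A2m was at -0.34 ± 0.11 at 24 h and -2.14 ± 0.11 at 48 h, and the difference of -1.80 ± 0.15 had an adjusted p of 2.27e-09. Hrg differed by -1.31 ± 0.16, C6 by -1.28 ± 0.25 and Apoa5 by -1.24 ± 0.12. Il1r2 (-2.42 ± 0.24), Npy (-2.17 ± 0.12), S100a6 (-1.45 ± 0.15) and Ccn2 (-1.27 ± 0.14) were also lower, while Vim was not (-0.01 ± 0.20, adjusted p = 0.991). Bcl2l15 (-2.49 ± 0.63), Pdzk1ip1 (-2.46 ± 0.52) and the DNA polymerase gene Poll (-1.80 ± 0.48) also differed far, at low signals with wide errors. Their differences from vehicle at 48 h were smaller (-1.59, -1.90 and -1.53), so their estimates at 24 h lay above vehicle. Among ER chaperones 5 were higher at 48 h, with Sdf2l1 at 0.01 ± 0.10 at 24 h and 1.20 ± 0.10 at 48 h, and Xbp1 was lower (5 higher and 3 lower without vehicle replicate 4).

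**Figure D5:**
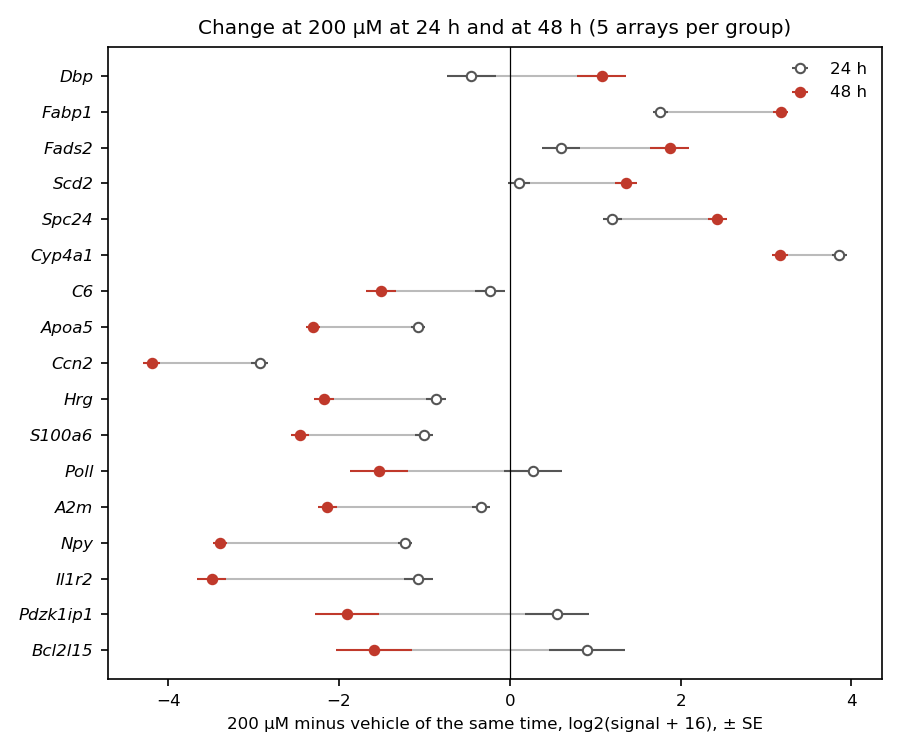
Difference between 200 µM and the vehicle of the same time on the log2(signal + 16) scale with its SE (x axis) at 24 h (open) and 48 h (red) for 17 genes (y axis), 5 wells a group. Fabp1 moves from 1.76 to 3.17 and A2m from -0.34 to -2.14, while Cyp4a1 moves from 3.86 to 3.16.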

How the data were processed

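RNA from 30 wells was read on 30 arrays, of which 10 enter the comparison. The deposited table holds array intensity (1 signal a probe set), which the authors computed with MAS5 per the submitters' processing notes; its version and scaling target are not given in the sources used here. The values were linear and already scaled, and log2(signal + 16) was taken. Of 31099 probe sets, 57 controls were left out, and 21282 exceeded 281.361 (the 40th percentile) on at least 5 arrays. Of these 15629 had 1 gene symbol in the platform annotation. The probe set with the highest mean stood for a gene, giving 11545 genes. A model with a mean for each of 6 groups was fitted to all 30 arrays in limma 3.58.1 under R 4.3.3 (eBayes with a variance trend, 24 residual degrees of freedom), tests were two-sided, and p-values were adjusted by Benjamini-Hochberg over all 11545 genes for each contrast. The median SE between groups was 0.124, and the number of arrays limits the precision. The code was tested on simulated data.

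The comparison and the gene lists were chosen with earlier results of these data known. The 43 lists hold 932 symbols, of which 787 were measured, 44 lay under the filter and 96 had no probe set of their own symbol; 13 were matched through an older symbol. Named genes were the 15 largest rises and 15 largest falls, the 5 largest differences each way between doses and between times, and up to 4 per list, and genes added beside them, such as list members that did not pass, were picked after their values were seen. Promoter sequences are RefSeq windows of GRCr8. Alternatives covered scaling, filters, the added constant, probe set choice, fit settings and each left-out array.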

Additional observations from a re-analysis of the deposited data

Results flagged for a closer look

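Among 47 named genes checked in both groups, 15 of 94 groups of 5 wells held a well far from the other 4. Chance does this in about 1 in 20 independent groups. The 94 groups share the same 10 arrays and are not independent, so the share cannot be tested against that rate. Vehicle replicate 4 was that well in 9 of the 15. It stood low for Ccn2 (14530), Il1r2 (3260), Hao2 (4460), Apoa5 (12430) and Pkdcc (4269), and high for Krt79 (82.1), Entpd1 (84.7), Veph1 (172.8) and Trim66 (705.4). Vehicle replicate 1 stood apart for Gna14 (910.7). In treated wells, replicate 3 stood apart for Slc25a34 (230.8) and Cfd (286.3), replicate 5 for Cyp4a1 (66140) and Acsl1 (42180), and replicate 1 for Trim66 (61.5).

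The same 47 genes were looked up in limma's test of the difference between the 48 h and 24 h effects of 200 µM. For 16 of them it passed (adjusted p below 0.05 over all genes). Over all genes tested 1.30% were higher and 1.11% lower at 48 h. Dbp, Fabp1, Fads2, Scd2, Spc24, Bcl2l15, Pdzk1ip1, Il1r2, Npy and Poll were named for passing this test, so their part of the count was fixed beforehand. Genes named only through a list, such as A2m, were not among the 47. On the log2 scale the 48 h effect was higher by 1.41 for Fabp1, 1.53 for Dbp, 1.27 for Fads2, 1.25 for Scd2 and 1.23 for Spc24. It differed by -0.69 for Cyp4a1, whose rise was smaller at 48 h. For the other 10 it was lower, with -1.27 for Ccn2, -2.42 for Il1r2, -2.17 for Npy, -1.45 for S100a6, -1.01 for Kng2l1, -1.24 for Apoa5, -1.17 for Pkdcc, -2.49 for Bcl2l15, -2.46 for Pdzk1ip1 and -1.80 for Poll.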

How the results depend on the processing

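Against vehicle, 3506 to 4160 genes were called with single wells left out. A fit of the 10 compared arrays alone called 2761 (1385 rises and 1376 falls), and 4079 without vehicle replicate 4. The count for a change of at least 1.5-fold was 1396 (603 higher, 793 lower), and median centring left 695 falls. Between doses, 398 to 493 genes differed with single wells of those groups left out. The count was 96 (38 higher, 58 lower) after median centring, 1146 (569 and 577) with array weights, 110 (49 and 61) at 1.5-fold, 1091 (541 and 550) after quantile normalization without vehicle replicate 4, and 1037 (501 and 536) without that array alone, an alternative chosen after seeing the data. A fit of the compared arrays alone gave 439 lower genes, and as many without vehicle replicate 4, which it does not hold. Between times, 199 to 488 genes differed with single wells left out, the highest without vehicle replicate 4. The higher genes numbered 99 (without treated replicate 1 at 48 h) to 220, and the lower genes 100 to 268, both highest without vehicle replicate 4. The count was 450 (228 lower) after quantile normalization, 28 (20 higher, 8 lower) after median centring, 176 (87 higher) with the compared arrays alone, 528 (249 and 279) with array weights, 112 (45 and 67) at 1.5-fold, 572 (275 and 297) after quantile normalization without vehicle replicate 4, and 439 (253 lower) with the compared arrays without it. The cause of these shifts was not tested.

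Of 240 named results 161 kept direction and side of the threshold under all 24 settings. Among 5737 refits 250 lost the call, 42 of them under median centring and 59 at 1.5-fold. Cry2, a clock repressor, turned from -0.38 to 0.27 (adjusted p = 0.541) when its probe sets were averaged. The labels give no replicate numbers that pair the wells. With the run of 6 array numbers, each holding 1 well of every group, as a block in a paired fit, 3971, 610 and 289 genes were called in the 3 comparisons.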
